A study of Mus musculus with 12 samples.

Results

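The comparison set 3 libraries of CBP/p300 knockout (KO) mouse embryonic fibroblasts (MEFs) given DMSO against 3 libraries of wild-type (WT) MEFs given DMSO, and asked what the unstressed transcriptome looked like without both coactivators. These 6 libraries were chosen by their labelled genotype and treatment out of 12 in the series, and the other 6 were the same genotypes after doxycycline (Dox) at 30 µg/ml for 24 hours. DMSO is the solvent, so the cells compared here had met no Dox. The KO cells were immortalised MEFs homozygous for loxP-flanked alleles, Crebbp fl/fl and Ep300 fl/fl, that stably expressed Cre-ERT2, a recombinase switched on by 4-hydroxytamoxifen (4-OHT). All 4 groups were grown in the same medium with serum, and polyadenylated RNA was sequenced on a BGISEQ instrument. The sources used here do not say whether the WT cells came from the same floxed line, carried Cre-ERT2 or received 4-OHT, nor how long after 4-OHT the KO cells were harvested. Loss of the coactivators, exposure to 4-OHT and any difference between cell stocks therefore cannot be told apart in the differences below. Nor do they say whether the 3 libraries of a group are independent cultures. Every p-value therefore rests on how much these libraries varied, and that variation may be technical.

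CBP, encoded by Crebbp, and p300, encoded by Ep300, are closely related lysine acetyltransferases. They do not bind DNA by a motif of their own. Transcription factors such as CREB, SMADs, AP-1, p53, NF-kappa B and nuclear receptors bring them to enhancers and promoters, where they acetylate histones and other proteins and help to recruit the transcription machinery. In fibroblasts these factors control matrix production, the response to serum and growth factors, and inflammatory secretion.

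The 6 libraries held between 44476039 and 51408230 reads assigned to genes, over 12637 genes that each reached at least 1.03 counts per 1000000 reads in some library of the series. The share of unmapped reads was 1.92 to 2.06% in the 3 WT libraries and 1.85% in KO library 3, against 7.63% in KO library 1 and 6.65% in KO library 2. The share of gene reads from mitochondrially encoded genes was 3.44 to 3.50% with WT and 3.75 to 4.05% with KO. The share from processed pseudogenes was 0.0869 to 0.0894% with WT, 0.0737% in KO library 1 and 0.101 and 0.0986% in KO libraries 2 and 3. In a principal component analysis the first component carried 97.9% of the variance and separated the genotypes, and the second carried 1.06% and set KO library 1 apart from the other 2 KO libraries. The common coefficient of variation between libraries of a group was 2.26%. All levels below are counts per 1000000 gene reads (CPM) scaled by TMM, a method that matches the bulk of genes between libraries, and all log2 differences are KO minus WT from edgeR's quasi-likelihood fit with their standard error (SE).

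Most measured genes differed between the KO and the WT libraries. edgeR's test called 5699 genes higher (45.1%) and 5597 lower (44.3%) in the KO libraries at an adjusted p under 0.05, together 89.4% of all genes, and in 89.8% the 3 WT and 3 KO values did not overlap, so a call by itself set few genes apart from the rest. A change of at least 2-fold was called upward in 1368 genes (10.8%) and downward in 2105 genes (16.7%). The larger the change, the more it lay on the lower side: 275 genes were at least 4-fold higher and 946 at least 4-fold lower, 86 and 460 passed 8-fold, and 14 and 165 passed 32-fold. The median log2 difference of all genes was 0.02. Falls of at least 2-fold made up 28.4% of the genes in the lowest of 5 equal bins by level and 11.4% in the highest bin, and rises of at least 2-fold made up 18.1% and 6.57%. The bins used the mean over the WT and KO libraries together, so a fall by itself moves a gene toward a lower bin. Genes low in every library were not in the table, so part of this gradient may come from how genes entered the bins. Without TMM scaling the 2-fold counts were 1793 higher and 1853 lower, because the median of all genes then moved up by 0.15 on the log2 scale. Scaling fixes the centre of these comparisons, so a change in total RNA per cell would not be seen.

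**Figure D1:**
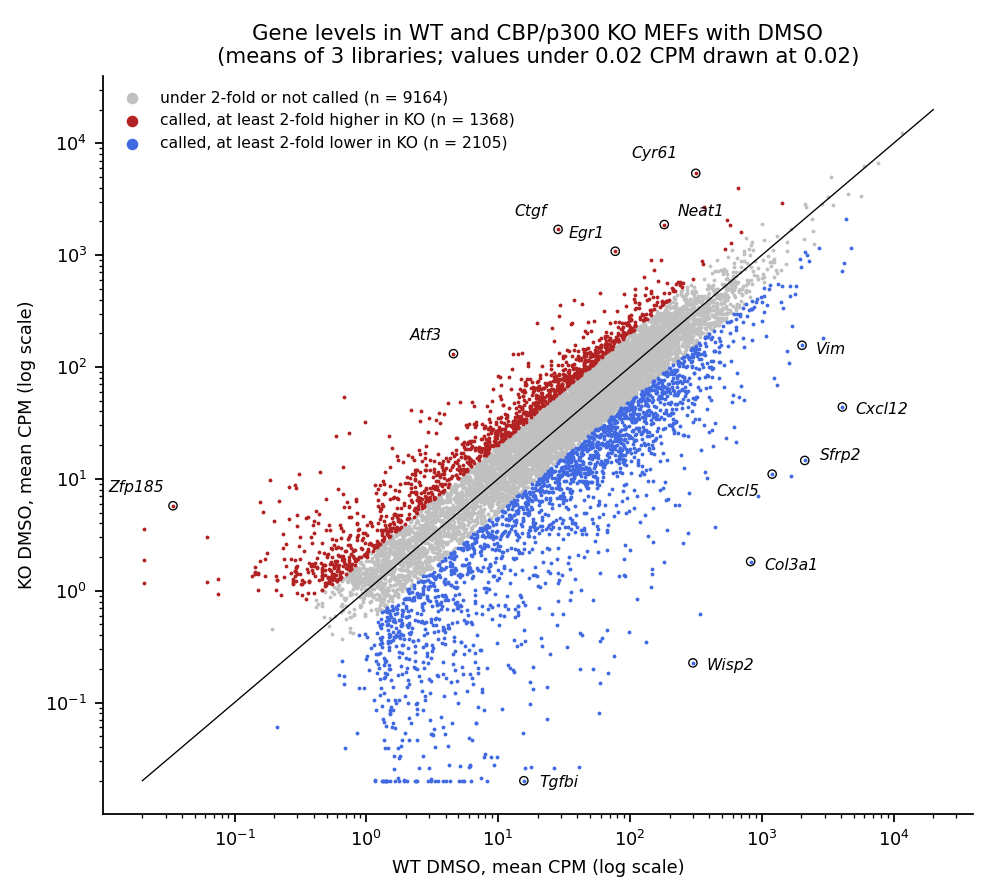
Mean CPM of each of the 12637 genes in the 3 WT DMSO libraries (horizontal, log scale) and the 3 KO DMSO libraries (vertical, log scale), with the 1368 genes called at least 2-fold higher in red and the 2105 called at least 2-fold lower in blue. The blue points reach further from the line of equal level than the red ones do, with Wisp2, Col3a1 and Tgfbi farthest among those labelled.

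The targeted genes were read first. Ep300, on chromosome 15 (chr15:81585351-81652077), was counted at 199, 192 and 200.4 CPM in the WT libraries and 128, 120.0 and 123 CPM in the KO libraries. The groups did not overlap, and Ep300 fell by 0.67 ± 0.033 (SE) on the log2 scale (edgeR adjusted p = 3.9e-14). Crebbp, on chromosome 16 (chr16:4081328-4213997), stood at 66.7, 65.8 and 67.8 CPM with WT and 60.4, 58.8 and 60.4 CPM with KO, a log2 difference of -0.16 ± 0.029 (SE; edgeR adjusted p = 2.4e-05). That call was lost without TMM scaling, where the difference was -0.01 (edgeR adjusted p = 0.76). Counts over a whole gene include exons that Cre does not remove, so they do not check the deletion, and the genotypes are taken from the labels.

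Several of the 25 largest falls among well-expressed genes were in genes for secreted proteins. Wisp2, a member of the CCN family of matricellular proteins, was counted at 303, 301 and 297 CPM in the WT libraries and at 0.236, 0.107 and 0.336 CPM in the KO libraries, a fall of 10.33 ± 0.066 (SE) on the log2 scale. Col3a1, which encodes type III collagen, went from 830.1, 815 and 824 CPM to 1.99, 1.86 and 1.62 CPM, and fell by 8.82 ± 0.041 (SE). Ptn, the heparin-binding cytokine pleiotrophin, stood at 1698, 1633 and 1676 CPM with WT and 10.4, 11.3 and 10.2 CPM with KO, and fell by 7.30 ± 0.035 (SE). A wide gap between KO and WT libraries follows from choosing the largest falls among genes whose groups did not overlap. Sfrp2, a secreted WNT modulator, fell by 7.18 ± 0.033 (SE) from 2138, 2151 and 2068 CPM to 14.9, 14.3 and 14.6 CPM. Grem1, which encodes the BMP antagonist gremlin, fell by 7.06 ± 0.039 (SE) from 922, 926 and 941 CPM to 6.71, 7.45 and 6.72 CPM. Cxcl12, the chemokine that binds CXCR4, fell by 6.54 ± 0.028 (SE) from 4095, 4093 and 4073 CPM to 42.1, 44.3 and 45.3 CPM. The same group of 25 also held genes of other kinds, among them the growth arrest gene Gas1 (-6.88 ± 0.038), the pseudokinase gene Trib2 (-7.08 ± 0.048), the transcription factor gene Atoh8 (-7.05 ± 0.064), xanthine dehydrogenase Xdh (-6.69 ± 0.052), the sphingosine 1-phosphate receptor gene S1pr3 (-6.57 ± 0.056) and Kitl, the ligand of KIT (-5.77 ± 0.055). Serpina3g, Gzme and Mcpt8 were in it too, but they belong to clusters of near-identical genes among which the counting may split reads, so their single values are uncertain. Summed over such genes, grouped after their values were seen, the 4 measured Serpina3 genes went from 402 ± 3.15 CPM (SD, n = 3) with WT to 0.702 ± 0.021 CPM (SD, n = 3) with KO. The 6 measured granzyme and mast cell protease genes went from 425 ± 4.08 CPM (SD, n = 3) to 6.16 ± 0.708 CPM (SD, n = 3). All 10 were called lower in KO, which only describes genes that were grouped after their values were seen.

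**Figure D2:**
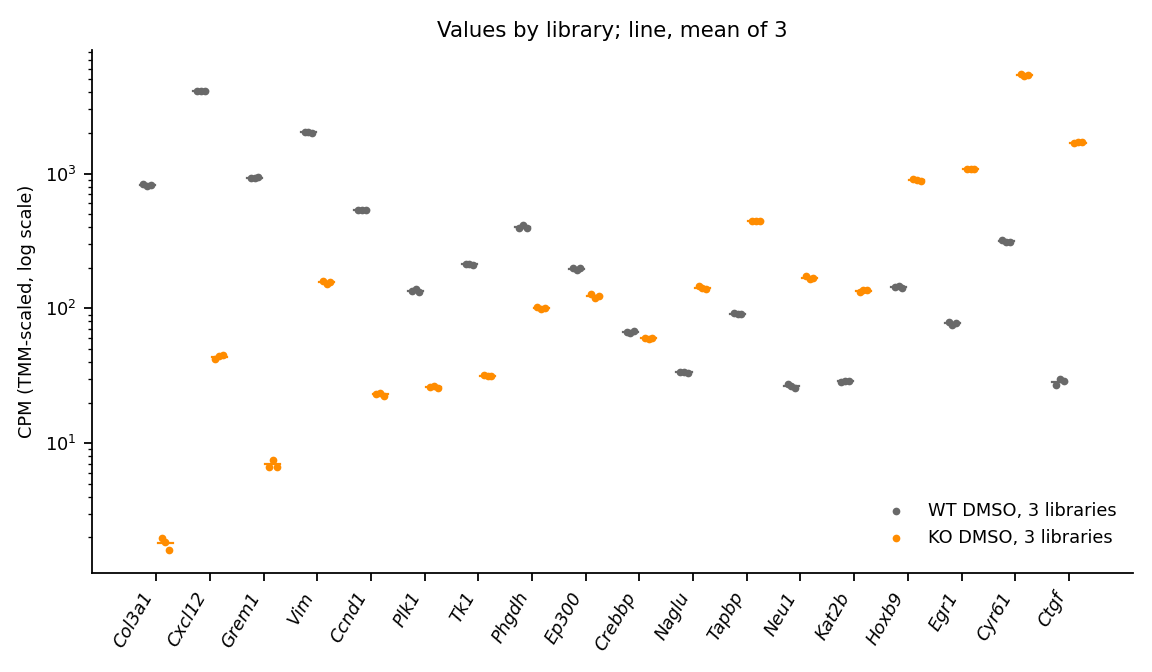
TMM-scaled CPM on a log scale for 18 genes described in the text, with 1 point for each of the 3 WT DMSO libraries (grey) and the 3 KO DMSO libraries (orange) and a line at their mean. For each of these genes the WT and KO points form groups that do not overlap, closest together for Crebbp and farthest apart for Col3a1.

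Most collagen genes were lower in KO. Of 22 collagen genes measured, 19 fell and 2 rose, and 16 of the falls were at least 2-fold, with a list median of -2.67 on the log2 scale. Their summed level was 9390 ± 25.7 CPM (SD, n = 3) with WT and 3048 ± 67.7 CPM (SD, n = 3) with KO. Besides Col3a1, the type VI chain gene Col6a3 fell from 279, 268 and 274 CPM to 3.35, 3.07 and 3.43 CPM, a difference of -6.38 ± 0.053 (SE). Col1a1, the main chain of type I collagen, fell by 2.86 ± 0.022 (SE) from 1684, 1699.7 and 1675 CPM to 239, 228 and 228 CPM. Its partner Col1a2 fell by less, 0.99 ± 0.023 (SE), from 2511, 2495 and 2496 CPM to 1311, 1239 and 1239 CPM. The 2 collagen genes that rose were Col11a1 (1.81 ± 0.034) and Col4a5 (0.72 ± 0.031). Since both were picked out after their values were seen, they are given as a description of the exceptions.

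Col3a1 had one of the promoters without a single CG dinucleotide in the window from 250 bases before to 50 bases after its start. It is shown as an example of the CpG-poor promoters counted further below, on the plus strand of GRCm38 at chr1:45311288-45311587 as given by RefSeq, with the letters TATAAA in capitals. They lie 112 to 117 bases before the start, farther from it than a TATA box usually does, so they are marked as a match of letters only.
Col3a1: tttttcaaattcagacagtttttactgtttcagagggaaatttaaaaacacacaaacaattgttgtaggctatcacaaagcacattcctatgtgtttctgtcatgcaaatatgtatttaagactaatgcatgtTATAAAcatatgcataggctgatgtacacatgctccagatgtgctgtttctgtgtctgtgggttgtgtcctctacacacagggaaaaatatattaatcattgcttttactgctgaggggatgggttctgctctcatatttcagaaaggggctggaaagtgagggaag

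Genes that assemble the matrix fell with the collagens. Among 44 matrix glycoproteins and proteoglycans 39 fell, 31 of them at least 2-fold, and 5 rose, with a median of -2.17. Their summed level went from 24706 ± 51.9 CPM (SD, n = 3) with WT to 8080 ± 72.8 CPM (SD, n = 3) with KO. Bgn, the small proteoglycan biglycan, fell by 4.02 ± 0.026 (SE) from 2894, 2976 and 2888 CPM to 175, 184 and 182 CPM, and Fn1, fibronectin, fell by 2.04 ± 0.027 (SE) from 4802, 4791 and 4777 CPM to 1193, 1149 and 1157 CPM. The large proteoglycan versican, Vcan, changed by -4.23 ± 0.061, fibulin-2, Fbln2, by -3.87 ± 0.023, and periostin, Postn, by -4.40 ± 0.035. Of 23 collagen-processing enzymes 18 fell and 4 rose. Lox, which crosslinks collagen and elastin, fell by 3.97 ± 0.023 (SE) from 1219.5, 1246 and 1252 CPM to 79.2, 77.8 and 80.3 CPM, and Pcolce, the enhancer of procollagen cleavage, fell by 3.48 ± 0.027 (SE). Loxl4, another enzyme of the LOX family, went the other way, from 25.03, 27.5 and 24.6 CPM to 230.4, 223 and 217 CPM (3.12 ± 0.037). Of 30 matrix proteases and their inhibitors 25 fell and 3 rose, with Adamts2, which trims procollagen, at -5.49 ± 0.05 and the inhibitor gene Timp1 at 1.80 ± 0.026.

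The label of the cells was checked against fibroblast markers. Of 14 listed, 13 were in the table, and each was detected in the WT libraries. All 13 were lower in KO, 11 of them at least 2-fold, with a median of -3.33. Among all genes 44.3% were lower and 16.7% at least 2-fold lower. Some of the 13, such as Col3a1 and Fn1, are also counted in the lists above, so this count is not separate from those. Detection was read in the WT libraries only, and S100a4 had 1, 2 and 1 reads in the KO libraries. Vim, the intermediate filament vimentin, fell by 3.69 ± 0.025 (SE) from 2022, 2037 and 2004 CPM to 159.5, 152 and 158 CPM. Pdgfra, the receptor for platelet-derived growth factor, fell by 3.38 ± 0.032 (SE) from 257, 251 and 260.1 CPM to 24.5, 25.1 and 24.3 CPM. Twist1, a mesenchymal transcription factor, changed least, with 71.1, 70.7 and 70.2 CPM against 61.4, 59.9 and 60.01 CPM (-0.23 ± 0.029). In bulk RNA, fewer cells of a kind and less RNA of those genes per cell cannot be told apart.

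Markers of other cell types gave no list that rose as a whole. None of 10 epithelial markers was in the table. Of 10 markers each, 1 endothelial gene, Egfl7, and 1 skeletal muscle gene, Des, were measured, both lower in KO and at most 7.01 CPM on average. Of 4 measured macrophage markers, Cd68 rose from 1.62, 1.43 and 1.43 CPM to 24.3, 24.9 and 23.6 CPM (4.02 ± 0.077), while Lyz2, Cd14 and Csf1r fell, and their summed level was 32.2 to 33.7 CPM with WT and 38.2 to 40.5 CPM with KO. Cd68 encodes a lysosomal membrane protein, and Ptprc and Adgre1, defining genes of leukocytes and macrophages, were not among the genes in the table. Among 5 neural markers Tubb3 fell by 5.37 ± 0.087 (SE), and Sox2, Nes and Map2 also fell. The adipocyte and cartilage genes Fabp4 (-6.75 ± 0.074), Sox9 (-4.28 ± 0.035) and Col2a1 (-2.09 ± 0.032) were all lower. The part of such cells in the differences was not tested beyond these levels.

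Transcription factors of development fell more often than not. Of 53 developmental transcription factor genes 48 fell, 32 of them at least 2-fold, 4 rose, and the median was -1.42. Prrx1, a homeobox gene of mesenchymal cells, fell by 3.65 ± 0.026 (SE) from 671 ± 5.51 CPM (SD, n = 3) to 53.6 ± 1.01 CPM (SD, n = 3). Snai2, which encodes the repressor SLUG, fell by 4.77 ± 0.04 (SE) from 150.4, 148 and 149.5 CPM to 5.2, 5.42 and 5.78 CPM. Id1 and Id3, direct targets of BMP signalling that inhibit basic helix-loop-helix factors, changed by -4.78 ± 0.055 and -4.84 ± 0.042. HOX genes were grouped by cluster after their values were seen. In the Hoxa cluster 6 of 7 measured genes fell, 5 of them at least 2-fold, and 1 rose. In the Hoxb cluster 7 of 8 rose and 1 fell, with a median of 0.44, and in the Hoxc cluster 3 of 6 rose, 1 fell and 2 did not pass, with a median of 0.06. Hoxb9, the only Hoxb gene past 2-fold, rose by 2.64 ± 0.025 (SE) from 143, 146 and 142 CPM to 909, 892 and 886 CPM. Contractile genes also fell in 21 of 27 cases and rose in 6, with smooth muscle actin, Acta2, at 205, 223 and 209 CPM with WT and 28.1, 28.5 and 27.8 CPM with KO (-2.92 ± 0.039).

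Secreted signals and their receptors were lower as well. Of 40 growth factor ligands and receptors 30 fell, 25 at least 2-fold, and 8 rose, with a median of -1.55. Fgf7, a ligand that fibroblasts send to epithelium, fell by 4.39 ± 0.027 (SE) from 607, 609 and 627 CPM to 28.3, 30.1 and 29.6 CPM. Hbegf, a ligand of the EGF receptor, rose by 3.60 ± 0.028 (SE) from 30.4, 30.7 and 27.8 CPM to 359, 356 and 361 CPM. Of 35 WNT pathway genes 27 fell and 7 rose, and the secreted WNT agonist Rspo2 stood at -6.64 ± 0.049. Of 42 guidance genes 33 fell and 7 rose, among the falls the semaphorin receptor Nrp2 (-5.34 ± 0.048) and Slit3 (-2.44 ± 0.025).

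Chemokines and acute-phase genes held some of the deepest falls. Of 28 chemokine and inflammatory genes 17 fell and 10 rose, and 14 of the falls were at least 2-fold. Cxcl5, a neutrophil-attracting chemokine, fell by 6.76 ± 0.03 (SE) from 1179.8, 1193 and 1225 CPM to 10.9, 10.8 and 11.3 CPM. Ccl7, which attracts monocytes, fell by 5.21 ± 0.035 (SE) from 277, 275 and 282 CPM to 7.56, 7.13 and 7.82 CPM. Il1rn, the antagonist of the interleukin-1 receptor, had between 1304 and 1307 reads in each WT library and 1, 1 and 2 reads in the KO libraries. Of 15 acute-phase and complement genes 14 fell, each at least 2-fold, and Lcn2, the siderophore-binding lipocalin, rose by 0.93 ± 0.022 (SE). Complement C3 fell by 2.97 ± 0.03 (SE) from 529.7, 510.4 and 513 CPM to 68.2, 65.1 and 64.8 CPM, ceruloplasmin, Cp, fell by 4.43 ± 0.028 (SE), and the pentraxin Ptx3 fell by 2.37 ± 0.027 (SE). Of 27 interferon-stimulated genes 13 were higher, 12 lower and 2 did not pass. Among all genes 45.1% were higher and 44.3% lower, so that split is not read as a result about the list.

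Genes of the cell cycle moved as one group. All 30 genes of G2 and mitosis and all 30 genes of S phase were lower in KO, 30 and 29 of them at least 2-fold, with medians of -2.16 and -1.79. The summed level of the mitotic genes was 5160 ± 47.1 CPM (SD, n = 3) with WT and 1198 ± 14.3 CPM (SD, n = 3) with KO. Plk1, the kinase that drives entry into and passage through mitosis, fell by 2.38 ± 0.033 (SE) from 135, 139.8 and 132 CPM to 26.1, 26.3 and 25.6 CPM. Tk1, thymidine kinase, fell by 2.74 ± 0.027 (SE) from 214, 213 and 208 CPM to 32.01, 31.6 and 31.5 CPM. Ccnd1, cyclin D1, which links growth signals to entry into the cycle, fell further, by 4.54 ± 0.03 (SE), from 539, 533 and 537 CPM to 23.03, 23.7 and 22.4 CPM. A list of p53 targets and cell-cycle inhibitors, which also holds Trp53 and the D-type cyclins, Ccnd1 among them, had 13 of 31 higher and 18 lower. Among all genes 45.1% were higher and 44.3% lower, so that split is not read as a result about the list. Cdkn2a, at 607, 607 and 587 CPM with WT and 177, 170.2 and 169 CPM with KO, was lower (-1.81 ± 0.03), and so were Cdkn2b (-2.05 ± 0.029) and Trp53 (-1.04 ± 0.025), while Rb1 was higher (1.20 ± 0.05). The anti-proliferative gene Btg2 rose by 3.20 ± 0.032 (SE) from 14.8, 13.8 and 13.9 CPM to 129.6, 129 and 132 CPM.

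Mitotic genes share a promoter element known as the CHR, which the DREAM complex and B-MYB bind. Its letters TTTGAA, searched on both strands, were found in 72.0% of the 25 mitotic promoters that RefSeq windows covered, against 11.6% of all 9407 promoters matched, and the CCAAT box was in 80.0% against 39.5%. These shares describe the windows and were not tested. The promoter of Plk1, on the plus strand at chr7:122159185-122159484, is shown with the CHR letters in capitals.
Plk1: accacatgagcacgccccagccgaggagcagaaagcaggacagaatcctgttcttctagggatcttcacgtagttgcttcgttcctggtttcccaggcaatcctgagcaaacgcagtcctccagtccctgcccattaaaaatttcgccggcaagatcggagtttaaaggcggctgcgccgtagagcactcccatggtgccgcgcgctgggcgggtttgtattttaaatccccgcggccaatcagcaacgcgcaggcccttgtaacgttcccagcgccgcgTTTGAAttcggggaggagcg

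Some metabolic groups were lower and others were not. All but 1 of the 17 serine and one-carbon genes fell, 10 of them at least 2-fold, with a median of -1.27, and the remaining one did not pass the test. Phgdh, the first enzyme of serine synthesis, fell from 396, 414 and 392 CPM to 103, 98.3 and 100.1 CPM. Of 24 cholesterol synthesis genes 21 fell and 2 rose, with Insig1, a sterol-regulated gene, at -2.01 ± 0.03. Of 23 ATF4 and stress-response genes 15 fell and 6 rose: Cth, which makes cysteine, was at -2.16 ± 0.043, and Atf3, a stress-induced repressor, was at 4.84 ± 0.045. Of 90 cytosolic ribosomal protein genes, a family examined after values were seen, 82 fell and 6 rose, with a median of -0.69 and 11 at least 2-fold lower. Nuclear-encoded respiratory chain genes stayed near the centre, with 30 of 75 higher, 35 lower, none past 2-fold in either direction and a median of -0.04, which was 0.10 without TMM scaling.

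Over all genes calls were balanced, with 45.1% higher and 44.3% lower, and only changes of at least 2-fold leaned lower, at 10.8% against 16.7%. The serum-responsive immediate-early genes were often higher. Of 33 measured 22 rose, 15 of them at least 2-fold, and 11 fell, 10 of them at least 2-fold, with a median of 0.52. Fos, which encodes a subunit of AP-1, rose by 4.22 ± 0.061 (SE) from 2.34, 2.13 and 2.13 CPM to 40.3, 42.5 and 40.1 CPM. Egr1, a zinc finger factor induced by serum, rose by 3.81 ± 0.027 (SE) from 79.1, 75.6 and 77.4 CPM to 1084, 1084 and 1082 CPM. Nr4a1, an orphan nuclear receptor, rose by 3.42 ± 0.029 (SE) from 38.6, 37.1 and 36.4 CPM to 409, 399 and 394 CPM, and Maff, a small MAF factor, rose by 3.09 ± 0.026 (SE). The falls held Myc, at 153, 149 and 150.0 CPM with WT and 17.7, 15.9 and 16.6 CPM with KO (-3.17 ± 0.031), the AP-1 gene Fosl1 (-1.97 ± 0.046) and Spry1, a feedback inhibitor of receptor tyrosine kinases (-3.75 ± 0.048). The list therefore did not move in 1 direction.

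Btg2 is also counted among these early-response genes, and its promoter held the letters TGACGTCA of the full cyclic AMP response element, the palindrome that CREB binds. That element was in 3.49% of all 9407 promoters, in 4.97% of the promoters of genes at least 2-fold higher and in 2.72% of those at least 2-fold lower. The window is on the minus strand at chr1:134079106-134079405, with the element in capitals.
Btg2: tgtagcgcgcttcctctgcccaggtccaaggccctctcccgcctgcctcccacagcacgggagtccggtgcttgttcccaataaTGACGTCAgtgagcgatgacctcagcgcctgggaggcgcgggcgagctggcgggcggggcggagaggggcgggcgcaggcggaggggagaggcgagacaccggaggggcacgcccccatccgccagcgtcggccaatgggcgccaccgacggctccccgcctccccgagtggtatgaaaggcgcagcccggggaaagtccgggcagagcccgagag

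The CCN family, named after Cyr61, Ctgf and Nov, split into opposite directions. Ctgf, a matricellular protein and a textbook target of YAP and TEAD, rose by 5.90 ± 0.05 (SE) from 27.02, 29.8 and 28.7 CPM to 1676, 1704 and 1714 CPM. Cyr61 rose by 4.09 ± 0.028 (SE) from 323, 311 and 313 CPM to 5484, 5336 and 5345 CPM. Nov fell by 4.02 ± 0.042 (SE), Wisp1 fell by 2.22 ± 0.038 (SE), and Wisp2 was nearly absent as described above. The list of YAP and TEAD targets, which counts Ctgf and Cyr61, had 12 of 23 higher and 11 lower. All genes stood near that split, with 45.1% higher and 44.3% lower. Ankrd1 was among the rises (2.19 ± 0.022) and Nuak2 among the falls (-1.52 ± 0.065). Targets of TGF-beta were mostly lower, with 16 of 21 lower and 5 higher and a median of -1.17. Their summed level hardly changed, at 4256 ± 5.77 CPM (SD, n = 3) with WT and 4168 ± 42.3 CPM (SD, n = 3) with KO. Smad3, a transducer of TGF-beta and a partner of CBP and p300, fell by 2.44 ± 0.027 (SE).

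Lysosomal genes rose together. Of 41 measured 36 rose, 4 fell and 1 did not pass, and 20 of the rises were at least 2-fold, with a median of 0.99. Their summed level was 7694 ± 40.9 CPM (SD, n = 3) with WT and 13097 ± 35.7 CPM (SD, n = 3) with KO. Neu1, a sialidase, rose by 2.67 ± 0.031 (SE) from 27.3, 26.6 and 25.8 CPM to 174, 166 and 168 CPM. Naglu, which degrades heparan sulfate, rose by 2.08 ± 0.029 (SE) from 33.9, 33.8 and 33.1 CPM to 146, 141 and 139 CPM, and Smpd1, acid sphingomyelinase, rose by 1.70 ± 0.024 (SE) from 77.05, 78.7 and 75.5 CPM to 250.3, 250.1 and 251 CPM. The 4 falls were Npc2 (-0.45 ± 0.021), Lgmn (-0.33 ± 0.024), Ctsb (-0.31 ± 0.019) and Ctsl (-0.10 ± 0.023), the last of which stood at 0.05 without TMM scaling. Of 17 genes for subunits of the proton pump of the lysosome, the V-ATPase, 16 rose and 1 fell, a family looked at after the values were seen. The E-box CACGTG, which factors of the TFEB family and MYC can bind, was in 33.3% of the 33 lysosomal promoters covered and in 10.4% of all promoters. The same E-box was in 9.01% of the promoters of genes at least 2-fold higher and in 8.24% of those at least 2-fold lower. It is in capitals in the promoter of Naglu, on the plus strand at chr11:101069844-101070143.
Naglu: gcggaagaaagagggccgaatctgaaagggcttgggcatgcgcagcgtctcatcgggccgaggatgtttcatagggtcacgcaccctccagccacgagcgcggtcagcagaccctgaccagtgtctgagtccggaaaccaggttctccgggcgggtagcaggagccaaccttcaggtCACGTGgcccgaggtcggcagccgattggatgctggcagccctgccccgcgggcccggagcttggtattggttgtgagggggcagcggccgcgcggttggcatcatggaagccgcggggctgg

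Most genes of antigen presentation by MHC class I were higher too. Of 15 genes 13 rose, 7 of them at least 2-fold, and 1 fell. Tapbp, which loads peptides onto class I molecules, rose by 2.29 ± 0.021 (SE) from 92.4, 90.2 and 90.2 CPM to 447, 446 and 445 CPM, and B2m, the common light chain, rose by 1.00 ± 0.025 (SE) from 399.8, 405 and 402 CPM to 773, 823 and 817 CPM. H2-D1 (3.45 ± 0.061) and H2-K1 (5.12 ± 0.082) encode class I heavy chains so alike, and so variable between mouse strains, that their counts are uncertain. All 18 measured genes with symbols starting Hist, the replication-dependent histones, were at least 2-fold higher, from 53.2 ± 1.20 CPM (SD, n = 3) summed with WT to 518 ± 7.93 CPM (SD, n = 3) with KO. This family was examined after its values were seen, and the libraries were poly(A)-selected, which passes over most histone mRNA because it lacks a poly(A) tail. Hist1h1c, a linker histone gene, rose by 3.64 ± 0.037 (SE) from 20.2, 19.4 and 19.3 CPM to 249, 249 and 238 CPM. Neat1, the long noncoding RNA that scaffolds paraspeckles, rose by 3.37 ± 0.029 (SE) from 189.8, 172 and 184 CPM to 1911, 1826 and 1892 CPM, and Sort1, a sorting receptor, rose by 3.30 ± 0.026 (SE) from 29.1, 29.8 and 27.9 CPM to 283, 284 and 286 CPM.

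**Figure D3:**
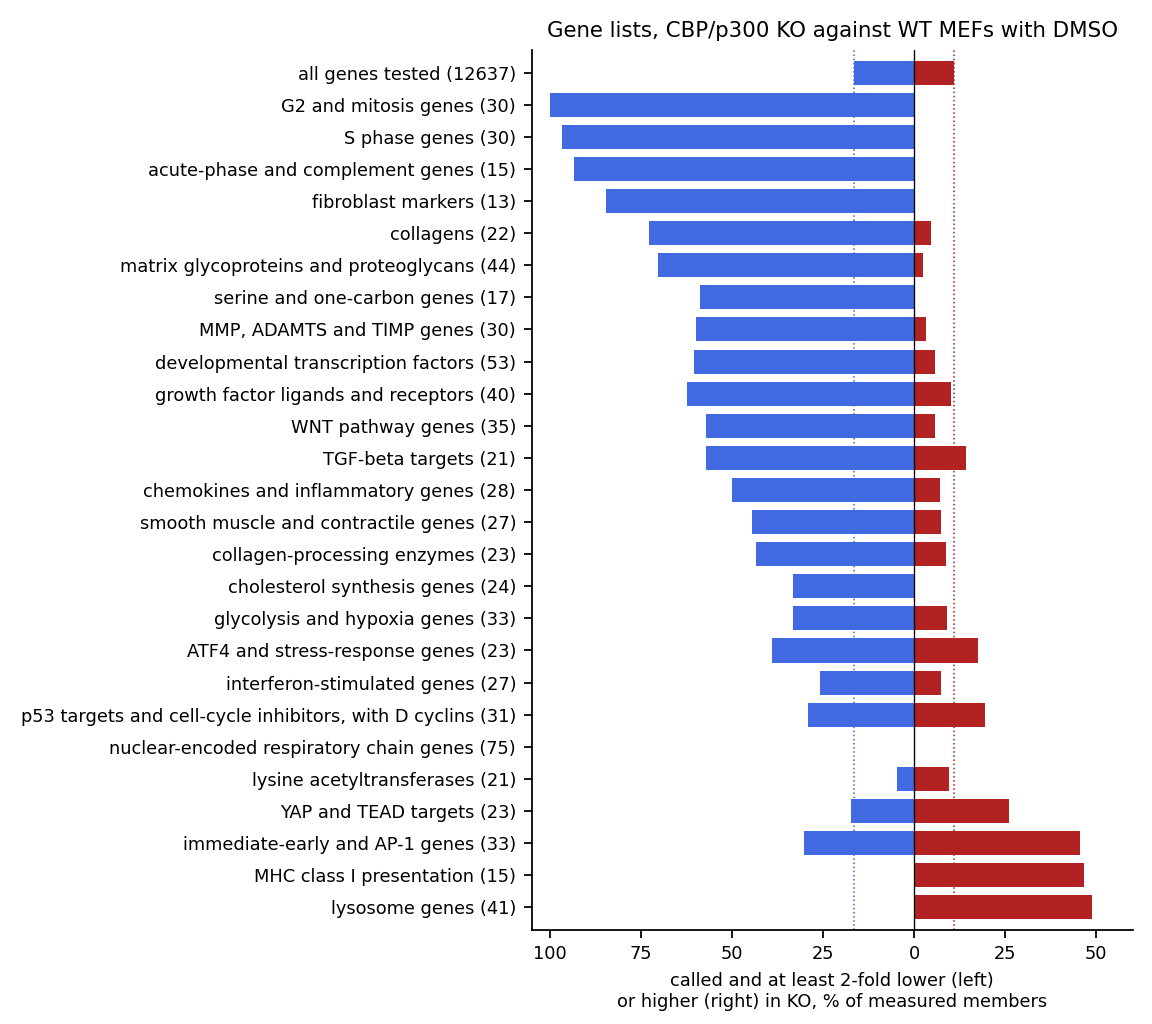
Share of the measured members of 26 gene lists that were called and at least 2-fold lower (blue, to the left) or higher (red, to the right) in KO, with the number measured in brackets and the share of all 12637 genes as dotted lines, 16.7% lower and 10.8% higher. Cell-cycle, acute-phase, fibroblast and matrix lists lie far to the left, and the lysosome, MHC class I and immediate-early lists reach farthest to the right.

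Of 21 lysine acetyltransferase genes, the targeted pair included, 11 were higher and 10 lower, and the median was 0.06. Among all genes 45.1% were called higher and 44.3% lower, so the splits in this paragraph are not read as results about the lists. Kat2b, which encodes PCAF, a partner of CBP and p300, rose by 2.23 ± 0.03 (SE) from 28.3, 29.03 and 29.00 CPM to 131, 137 and 136 CPM, and Ncoa1, a nuclear receptor coactivator, rose by 1.59 ± 0.071 (SE). Naa10, an N-terminal acetyltransferase, was the list's only fall of at least 2-fold (-1.11 ± 0.057). Of 18 deacetylases and sirtuins 11 rose and 5 fell, with Sirt1 at 1.20 ± 0.041 and Hdac9 at -4.65 ± 0.29. Hdac9 was low, at a mean of 1.56 CPM with WT and 0.060 CPM with KO, close to the 0.0597 CPM that 3 reads per KO library make. Of 21 genes for partners of CBP and p300, 10 rose and 10 fell, and Cited2, which competes with HIF-1 for p300, was among the falls (-2.71 ± 0.031). Vdr, the vitamin D receptor, led the falls among 19 nuclear receptors, of which 9 fell and 7 rose, at 299, 300.4 and 299 CPM with WT and 32.7, 32.99 and 31.4 CPM with KO (-3.21 ± 0.029).

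A small set of genes was counted in 1 genotype and hardly at all in the other. At most 3 reads in each of the 3 KO libraries were found for 63 genes, and at most 3 reads in each WT library for 5 genes. With 0 reads in all 3 KO libraries were 8 genes, and Tgfbi, a secreted adhesion protein induced by TGF-beta, was the one with the highest WT level, 15.3, 15.8 and 15.9 CPM. Against a floor of 3 reads per library, Tgfbi was at least 263-fold lower in KO, and H19, an imprinted noncoding RNA at 5.06 CPM with WT, was at least 84.7-fold lower. Sparcl1, Ces1g, Cyp2f2, Gm49257 and Slc6a2 were also among them. The 5 genes near 0 in WT were Zfp185, at 6.28, 4.95 and 6.01 CPM in the KO libraries, Btn1a1, at 3.41, 3.74 and 3.43 CPM, Gal3st2, Rragd and Ptgds. The list medians given above for TGF-beta targets and matrix glycoproteins were the same with Tgfbi and Sparcl1 at their bound.

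CpG content of the promoter was one feature that the comparison did not use. A promoter was called CpG-poor where its ratio of observed to expected CG dinucleotides was under 0.4. Such promoters made up 12.1% of the 9407 genes matched to a RefSeq window, 24.5% of the 1505 genes at least 2-fold lower and 48.5% of the 301 genes at least 8-fold lower. They made up 13.8% of the 966 genes at least 2-fold higher and 31.4% of the 51 at least 8-fold higher. CpG-poor genes are often expressed at low levels, where 2-fold falls were more frequent, so the shares were also taken within 5 bins of expression level. Those bins used the mean over both genotypes, which a fall itself lowers, so they do not fully separate level from change. In the lowest bin 41.2% of CpG-poor genes and 23.8% of the others fell at least 2-fold, and in the highest bin 23.3% and 10.6% did. The TATAAA letters were in 15.9% of the promoters of genes at least 8-fold lower, in 15.7% of those at least 8-fold higher and in 6.58% of all. The shares are descriptions over genes, with no test.

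**Figure D4:**
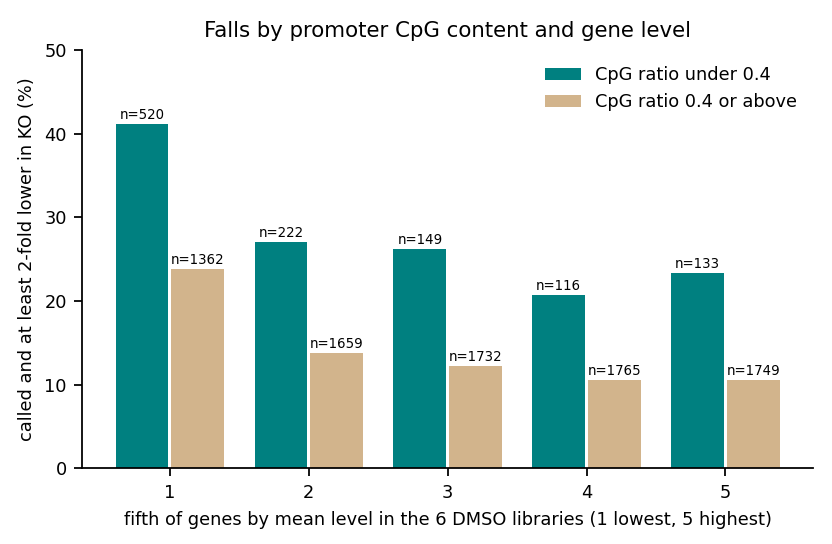
Share of genes called and at least 2-fold lower in KO (vertical, percent) within each of 5 equal bins of genes by mean level in the 6 DMSO libraries (horizontal), for genes with a promoter CpG ratio under 0.4 (green) and the rest (tan), with the number of genes above each bar. The green bar is the taller one in each of the 5 bins, with 41.2% against 23.8% in the lowest.

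The same genotypes were compared after Dox in 6 other libraries, which share no library with the DMSO comparison. There edgeR called 11363 genes (89.9%). Of the 3473 genes called at least 2-fold with DMSO, 3449 were called in the same direction with Dox and 3088 were also at least 2-fold there. Across the 12637 genes the 2 sets of log2 differences had a Pearson r of 0.977, a description over genes that share annotation and level. Of the genes called with DMSO, 137 were called in the other direction with Dox. The test of the difference itself, Dox minus DMSO, called 107 genes with a difference of at least 2-fold (0.847%), 77 of them toward lower and 30 toward higher in KO. That count depended on which KO DMSO libraries were used: without library 1 it was 191, without library 2 it was 83 and without library 3 it was 80. The wide fall in matrix, mitotic and fibroblast genes was thus present with and without Dox: the median log2 difference of the collagens was -2.67 with DMSO and -2.41 with Dox, and that of the mitotic genes was -2.16 and -1.86. The lysosomal median was 0.99 with DMSO and 0.95 with Dox.

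**Figure D5:**
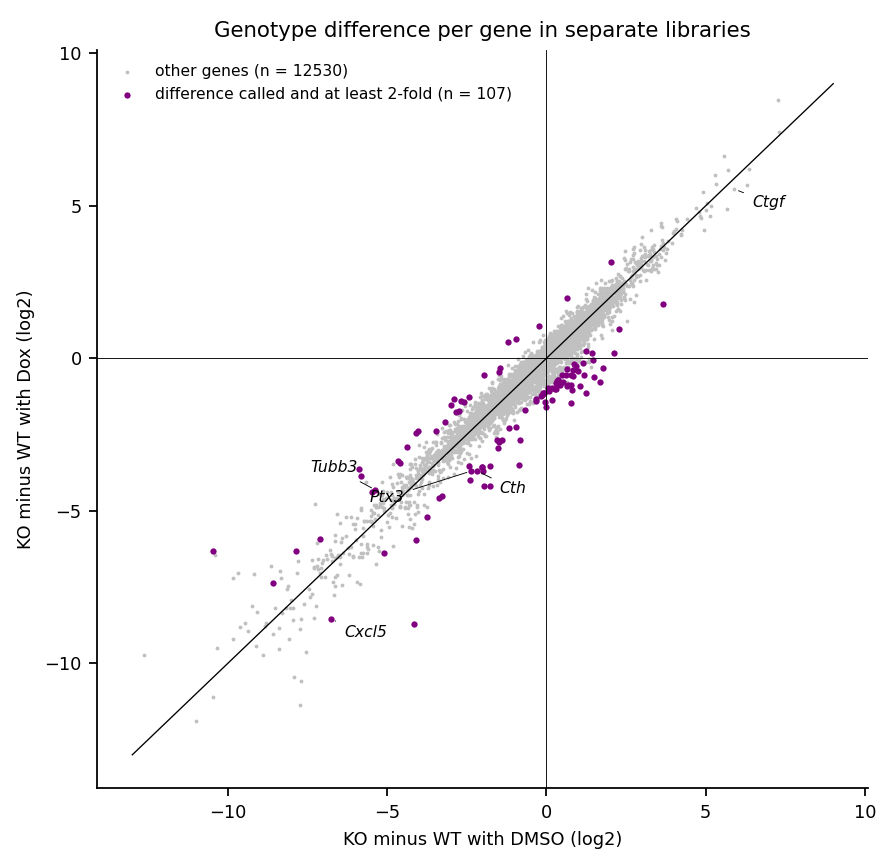
Log2 difference KO minus WT of each gene with DMSO (horizontal) and with Dox (vertical), with the line of equal difference and, in purple, the 107 genes whose difference between both was called at an adjusted p under 0.05 and at least 2-fold. Most genes lie along the line from the lower left to the upper right, and Cxcl5, Ptx3 and Cth lie below it.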

How the data were processed

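The submitters' processing notes name STAR 2.6.0a, HTSeq 0.10.0 and the mouse build GRCm38.p6, and the authors deposited whole-number read counts per gene for 12 libraries in 1 table, with 4 rows of reads not assigned to a gene that were left out of library sizes. The sources used here do not state whether counting used strand, so antisense and overlapping genes cannot be separated. Each gene in the table reached at least 1.03 counts per 1000000 reads in some library, so a gene may be present only through the genotype where it is high, and listed genes below that level were not analysed here. Of the 12637 identifiers 12634 matched GENCODE vM21.

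Counts were fitted with edgeR 4.0.16 (R 4.3.3, limma 3.58.1): TMM scaling, 4 group means over all 12 libraries, a robust quasi-likelihood F test and Benjamini-Hochberg adjustment over 12637 genes, called at an adjusted p under 0.05. The SE is the absolute log2 difference over the square root of F. The low-count filter of edgeR removed 0 genes. Counts were simulated with 100 well-counted genes changed by each fold, evenly up and down, and all other genes unchanged. There 93% of 1.5-fold and 99% of 2-fold changes were recovered, and 13 of 12437 unchanged genes were called. In the real libraries most genes were called and large changes leaned lower, so these rates do not carry over to them. Alternatives were median-ratio scaling, no TMM, a stricter filter, fewer genes, DESeq2 1.42.0, limma-voom, the 6 DMSO libraries alone, a replicate block, a term that joins KO DMSO library 1 to the 3 WT DMSO libraries, all low in processed pseudogenes (so that KO DMSO library 1 alone sets the DMSO difference), a null of 1.5-fold, and leaving out libraries. Leaving out KO DMSO libraries 1 and 2 together was added after their unmapped reads were seen.

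The comparison and the 46 gene lists were chosen with earlier results of these data known. Named genes were Crebbp and Ep300, the 25 largest called differences per direction among genes whose mean log2 CPM reached 3, with groups that did not overlap, up to 12 genes per direction with at most 3 reads in each library of a genotype, and up to 5 called members per list. Col11a1, Col4a5, Timp1, Lcn2, Myc, Fosl1, H2-K1, Hdac9, the 4 lysosomal falls and the genes with 0 reads beyond that rule were picked after their values were seen. So were the families of histone, V-ATPase, ribosomal protein, zinc finger, tubulin, Serpina3, granzyme and mast cell protease genes, and the grouping of HOX genes by cluster. RefSeq promoter windows of 300 bases on GRCm38.p6 matched 9407 genes, and motifs were searched as exact letters on both strands. The search covered 6 motifs, and an AP-1 site is not reported. Some genes are not reported here.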

Additional observations from a re-analysis of the deposited data

Results flagged for a closer look

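For 6 genes named above, the difference between KO and WT itself differed between Dox and DMSO in edgeR's interaction test by at least 2-fold, with 3 libraries in each of the 4 groups. Cxcl5 was lower in KO by a further -1.79 ± 0.071 (SE) on the log2 scale with Dox, at -8.56 ± 0.039 there against -6.76 ± 0.03 with DMSO (edgeR adjusted p of the difference = 2.9e-15). For Cth the KO minus WT difference moved by -1.54 ± 0.063 (SE), for Ptx3 by -1.33 ± 0.041 (SE) and for Lcn2 by -1.19 ± 0.032 (SE), the last from higher in KO with DMSO to -0.26 ± 0.023 with Dox. Tubb3 moved by 1.05 ± 0.18 (SE) toward a smaller fall. Sparcl1 moved by 4.15 ± 1.31 (SE), a fitted value against 0 reads in all KO DMSO libraries that depends on the prior count and is not a bound.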

How the results depend on the processing

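Counts of calls kept within 1.5 times of those reported under each scaling, filter, gene set and tool tried, with 2 kinds of exception. Tested against a null of 1.5-fold, 2460 genes were called higher and 3009 lower. The count of genes whose difference changed by at least 2-fold between DMSO and Dox, 107, was 68 with protein-coding genes only, 56 with the term for low processed pseudogenes, where KO DMSO library 1 alone stands for KO, and 192 without KO DMSO libraries 1 and 2 together; the cause was not tested. Leaving out each DMSO library in turn gave 5517 to 5586 genes higher, 5499 to 5587 lower, 1335 to 1373 at least 2-fold higher, 2106 to 2140 at least 2-fold lower, 11319 to 11395 called with Dox and 80 to 191 in the DMSO to Dox difference. Without KO DMSO libraries 1 and 2 together, 1371 were at least 2-fold higher and 2153 lower. Without TMM the share of called genes that were higher was 58.6%, against 50.5%, with 6689 higher and 4734 lower, and the log2 fold change of Ctsl turned to 0.051. Replicate numbers did not pair the libraries: deviations of same-numbered WT and KO libraries correlated at 0.02, 0.06 and -0.03 over genes, and only library 1 correlated best with its own number. With the replicate block 5703 genes were higher and 5593 lower, 1369 and 2105 at least 2-fold. Depth limited genes near 0, where 3 reads per KO library correspond to 0.0597 CPM.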

Other observations

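Xist, the X-inactivation RNA, was present in every library and rose from 1451, 1358 and 1483 CPM with WT to 2984, 2874 and 2918 CPM with KO (1.03 ± 0.068 on the log2 scale, SE). Fth1, the ferritin heavy chain that stores iron, fell by 2.31 ± 0.025 (SE) from 4172, 4235 and 4147 CPM to 830.1, 862 and 845 CPM, while Hmox1, haem oxygenase, rose by 1.26 ± 0.025 (SE) from 80.4, 82.7 and 79.8 CPM to 193, 192 and 198 CPM, and both are classed as NRF2 targets. Of 28 NRF2 and metallothionein genes 11 rose and 16 fell. Of 16 circadian clock genes 9 rose and 5 fell, with Clock itself at 1.00 ± 0.031 and Nr1d1, which represses Arntl, at -0.98 ± 0.055. Over all genes 45.1% were called higher and 44.3% lower, so these splits are not read as results about the lists. Of 326 genes with symbols starting Zfp, a family looked at after values were seen, 175 rose and 100 fell, 21 and 17 of them at least 2-fold, with a median of 0.16. Rises and falls of at least 2-fold made up larger shares of all genes, 10.8% and 16.7%. Of 10 alpha and beta tubulin genes, a family also looked at after values were seen, 9 fell and 1 rose, with a median of -1.10.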
